A study of Mus musculus with 11 samples.

Results

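The 10 genes described here are classical transcriptional targets of p53 in the mouse, the species sequenced. They were taken as a fixed list of symbols: Cdkn1a, Ccng1, Mdm2, Bbc3, Pmaip1, Bax, Phlda3, Sesn1, Sesn2 and Zmat3. Each symbol matched 1 of the 46078 gene identifiers in the count tables, and all 10 passed the filter on low counts in each comparison. The study varied L3mbtl3, a chromatin protein with MBT domains, in the dorsal telencephalon, from which the neocortex forms.

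Messenger RNA came from 11 libraries of CD-1 mice in 5 groups. In 3 gain libraries the plasmid pCIG2-L3mbtl3 had been electroporated into wild-type embryos in utero at E12.5, and cells showing GFP were collected by flow sorting 3 days later, at E15.5. Another 3 libraries, the GFP controls, had the plasmid pCIG2 without L3mbtl3 and the same age and sort. The remaining 5 libraries were microdissected E12.5 dorsal telencephalon that was neither electroporated nor sorted, with 2 labelled L3mbtl3 -/- (knockout), 2 labelled L3mbtl3 +/- (heterozygote) and 1 labelled wild-type. The last 3 of these served as E12.5 controls, so 2 of the 3 carry a mutant allele. Neither the promoter of the plasmid nor the design of the mutant allele was given in the sources used here. The sorted cells are those that took up plasmid, whatever their type.

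The transcription factor p53, encoded by Trp53, is kept low by the ubiquitin ligase Mdm2 and its partner Mdm4, and it accumulates after DNA damage, replication stress or ribosome faults. Its targets stop the cell cycle, feed back on p53 itself, trigger mitochondrial apoptosis or restrain growth and oxidative damage. In the mouse cortex, excess p53 activity in neural progenitors kills cells and reduces the number of neurons.

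p53 binds DNA through pairs of a 10-base unit, and the promoter windows of the members were searched for that unit because it is the best known sequence link between p53 and its targets. RefSeq (GRCm38.p6) gave windows of 300 bases, from 250 before to 50 after a gene's start, for 8 of the 10 members; Pmaip1 and Zmat3 were not among them. The consensus unit of the p53 response element, searched on both strands, occurred in a window of 5 of these 8 genes (Cdkn1a, Ccng1, Mdm2, Bax and Sesn1). It occurred in 9.55% of all 27025 genes with a window. Each match is shown with 15 bases on either side, 5′ to 3′ on the strand of the gene, and the capitals mark the unit. The stretches are chr17:29090891-29090952 (plus strand) for Cdkn1a, chr11:40755447-40755486 (minus strand) for Ccng1, chr10:117710920-117710959 (minus strand) for Mdm2, chr7:45467075-45467114 (minus strand) for Bax and chr10:41887251-41887290 (plus strand) for Sesn1.
Cdkn1a: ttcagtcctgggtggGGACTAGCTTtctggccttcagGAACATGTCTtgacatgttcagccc
Ccng1: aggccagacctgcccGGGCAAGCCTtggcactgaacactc
Mdm2: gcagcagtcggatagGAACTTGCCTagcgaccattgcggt
Bax: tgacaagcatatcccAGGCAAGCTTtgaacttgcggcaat
Sesn1: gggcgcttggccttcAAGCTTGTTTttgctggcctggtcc
The window of the first listed start of Cdkn1a was the one member window with a pair of units no more than 13 bases apart. They lay at 73 and 51 bases before that start, and the window of the second listed start of Cdkn1a had no unit. Such a pair occurred in 20 of the 27025 genes (0.0740%). The single units lay 185 bases before the start in Ccng1, 186 in Mdm2, 201 in Bax and 173 before the second listed start of Sesn1. A match is a description of letters and was not tested as a binding site.

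Bbc3 and Sesn2 had no such unit in their windows, and 250 bases before a start are shown because both genes were higher in the libraries labelled knockout. For Bbc3, which has several listed starts, the first is used. The capitals mark GGGCGG and its reverse complement CCGCCC, overlapping copies included, at chr7:16309333-16309582 (plus strand, Bbc3) and chr4:132510457-132510706 (minus strand, Sesn2).
Bbc3: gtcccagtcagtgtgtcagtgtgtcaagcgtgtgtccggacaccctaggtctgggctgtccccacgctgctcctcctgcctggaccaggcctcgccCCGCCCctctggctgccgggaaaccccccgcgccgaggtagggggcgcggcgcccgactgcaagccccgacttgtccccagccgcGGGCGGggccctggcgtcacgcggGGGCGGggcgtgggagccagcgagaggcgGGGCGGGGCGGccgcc
Sesn2: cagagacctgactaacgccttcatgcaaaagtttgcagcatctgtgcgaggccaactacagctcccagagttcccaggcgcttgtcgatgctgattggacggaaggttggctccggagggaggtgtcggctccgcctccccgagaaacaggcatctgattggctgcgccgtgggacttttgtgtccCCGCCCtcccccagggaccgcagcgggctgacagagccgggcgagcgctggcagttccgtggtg
GGGCGG on either strand occurred in the windows of 7 of the 8 members, against 38.2% of all genes. TATAAA on either strand occurred in 0 of the 8 members, against 15.7% of all genes.

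Library totals ran from 16527551 to 26658718 counts, so a count of 3, the limit that a count of 0 allows, was worth 0.113 to 0.182 CPM, the count scaled to a common library total. This limit covers counting error only. L3mbtl3 stood at 1411, 1158 and 824 CPM in the gain libraries, against 51.5, 46.4 and 52.9 CPM in the GFP controls. The libraries labelled knockout had 74.5 and 77.2 CPM of L3mbtl3, against 61.5, 64.1 and 64.7 CPM in the E12.5 controls, a rise (log2 fold change 0.27, SE 0.0539, edgeR adjusted p = 0.0128). This call was lost in a single fit of all 11 libraries, and also without labelled knockout replicate 2 or with a term for embryo sex. Both of the latter fits rest on labelled knockout replicate 1 alone, since replicate 2 was the only female E12.5 library. Counts over all exons cannot show a deleted exon, so the L3mbtl3 counts do not test the knockout label. Every direction below is that of the libraries labelled knockout. The sex read from Xist and Y-linked counts was male in the GFP controls and the E12.5 controls, female in gain replicates 1 and 3 and male in gain replicate 2. Labelled knockout replicate 1 was male and replicate 2 female.

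Per exon length, the apoptosis effector Bax had the highest level of the 10 genes in every group. In the gain libraries the means were 112 RPKM for Bax, 9.68 RPKM for Bbc3, 1.02 RPKM for Cdkn1a and 0.238 RPKM for Pmaip1, and the whole order was the same as in the sorted E15.5 GFP controls. There Bax had 135 ± 36.8 RPKM (SD, n = 3 for all values of the GFP controls). Sesn1 at 20.9 ± 0.816 RPKM, Mdm2 at 20.6 ± 3.09 RPKM and Bbc3 at 13.1 ± 5.58 RPKM overlapped with their neighbours in the order. Ccng1 at 7.72 ± 1.02 RPKM and Zmat3 at 3.63 ± 0.728 RPKM followed, and Sesn2 at 2.29 ± 0.952 RPKM overlapped with Phlda3 at 1.87 ± 0.404 RPKM. Cdkn1a was ninth of 10 with 1.46 ± 0.530 RPKM and overlapped with Phlda3, and Pmaip1 was last with 0.615 ± 0.262 RPKM.

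At E12.5 the order was another, with Cdkn1a in the middle and Bbc3 near the bottom. In the 2 libraries labelled knockout the means ran from 65.7 RPKM for Bax to 3.13 RPKM for Phlda3, and Zmat3 overlapped with Pmaip1 and Sesn2 with Bbc3. The E12.5 controls had the same order, with 68.9 ± 2.83 RPKM for Bax (SD, n = 3 for all values of these controls). Mdm2 followed with 19.4 ± 0.378 RPKM and overlapped with Sesn1 at 18.1 ± 1.1 RPKM. Ccng1 at 13.7 ± 0.916 RPKM, Cdkn1a at 10.5 ± 0.242 RPKM and Zmat3 at 4.63 ± 0.101 RPKM came next without overlap between neighbours. The lowest were Pmaip1 at 3.16 ± 0.463 RPKM, Sesn2 at 2.75 ± 0.152 RPKM, Bbc3 at 2.45 ± 0.0564 RPKM and Phlda3 at 2.4 ± 0.163 RPKM. Among these last 4, Pmaip1 overlapped with Sesn2 and Bbc3 with Phlda3.

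**Figure D1:**
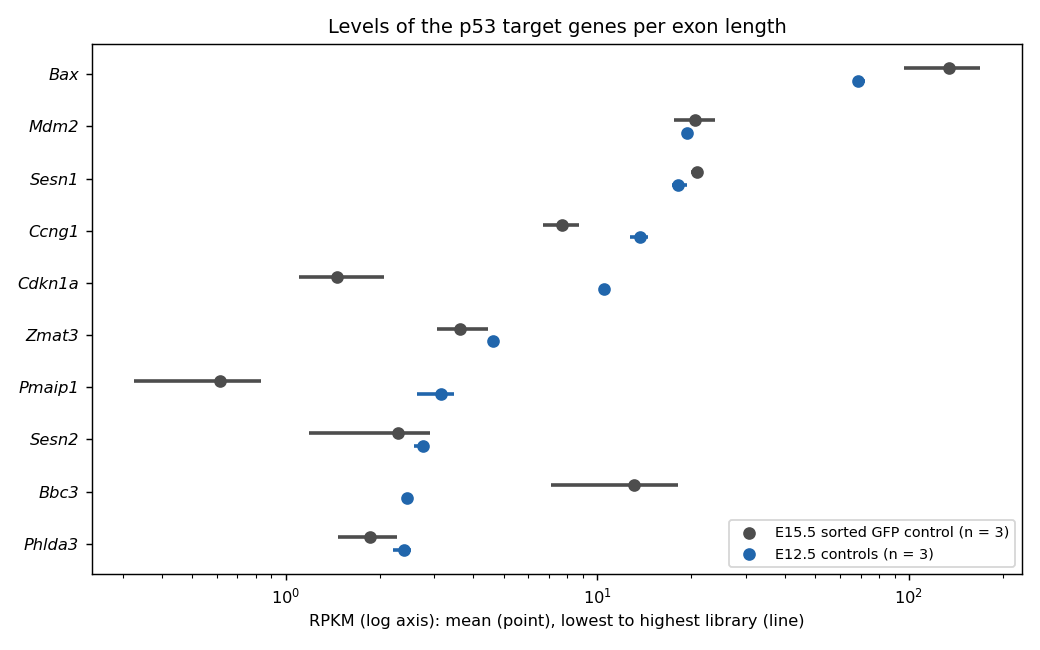
RPKM (counts scaled to exon length and library total, log axis) of the 10 genes in the sorted E15.5 GFP controls and the E12.5 controls, with points at the mean of 3 libraries and lines from the lowest to the highest. Bax is highest in both groups, at 135 and 68.9 RPKM, while Bbc3 lies to the right and Cdkn1a and Pmaip1 to the left in the GFP controls.

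The libraries labelled knockout were compared with the E12.5 controls to ask which of the genes differ at the stage when cortical neurogenesis begins. Bbc3, Pmaip1, Sesn2 and Zmat3 rose, Sesn1 fell, and the other 5 members did not pass the test. Of the 16361 genes tested, edgeR called 7.41% (adjusted p under 0.05), with 3.63% higher and 3.78% lower. The median log2 fold change of the 10 members was 0.17, with 4 of 10 below 0, beside -0.00017 for all genes tested. With 1 library left out the members' median ran from 0.088 to 0.225. The lowest was without labelled knockout replicate 2, with 5 of 10 below 0, and the highest without labelled knockout replicate 1. The groups did not overlap in CPM for 6 of the 10 members, with 5 higher and 1 lower, against 38.6% of all genes tested (18.1% higher and 20.5% lower). Only Pmaip1 remained called without each of the 5 libraries in turn. DESeq2 called 2 members, Pmaip1 and Zmat3 (6.14% of all genes it tested), voom with quality weights called 4 (5.2% of all genes), and a single edgeR fit over all 11 libraries called 0, with an adjusted p of 0.856 for Pmaip1 and 2 members at an unadjusted p under 0.05. In bulk tissue, fewer cells of a type and less RNA per cell cannot be told apart. The adjusted p-values of this comparison are from edgeR, over all genes tested.

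Pmaip1 encodes Noxa, a BH3-only protein that neutralises the survival protein Mcl1 (GRCm38 chromosome 18, 66458604 to 66465550, plus strand). It had 13.7 and 14.5 CPM in the libraries labelled knockout, against 8.93 and 6.96 CPM in the heterozygotes and 9.21 CPM in the wild type. Both libraries labelled knockout lay above all 3 controls. The rise was 1.68-fold (log2 0.75, SE 0.124, adjusted p = 0.00425). With 1 library left out it stayed between 0.64 and 0.82 on the log2 scale, with adjusted p from 0.00469 to 0.0249.

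Bbc3 encodes Puma, the other BH3-only protein of the list, which binds all antiapoptotic members of the Bcl2 family (chromosome 7, 16309616 to 16318205, plus strand). It had 6.67 and 7.63 CPM in the libraries labelled knockout, against 4.99 and 4.96 CPM in the heterozygotes and 4.78 CPM in the wild type. The groups did not overlap, and the controls spanned a narrow range. The rise was 1.46-fold (log2 0.55, SE 0.138, adjusted p = 0.0339). The call was lost without labelled knockout replicate 2 (log2 0.44, adjusted p = 0.248), without either heterozygote (adjusted p = 0.0682 and 0.0798) and without the wild type (adjusted p = 0.103).

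Bax, the pore-forming protein that BH3-only proteins set free or activate, did not pass the test (chromosome 7, 45461695 to 45466898, minus strand). It had 55.7 and 58.4 CPM in the libraries labelled knockout, against 58.7 and 58.3 CPM in the heterozygotes and 62.7 CPM in the wild type, and the groups overlapped. Its log2 fold change was -0.06 (SE 0.0583, adjusted p = 0.603). Phlda3, which encodes a PH-domain protein that competes with Akt for membrane lipids, had 5.1 and 4.65 CPM in the libraries labelled knockout, against 3.94 and 3.45 CPM in the heterozygotes and 3.81 CPM in the wild type (chromosome 1, 135766119 to 135769136, plus strand). Its groups did not overlap, but the difference did not pass the adjusted threshold (log2 0.38, SE 0.157, adjusted p = 0.171).

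The sestrins are stress proteins that restrain the growth kinase mTORC1, and the pair on the list differed in opposite directions. Sesn2 had 13.2 and 12.75 CPM in the libraries labelled knockout, against 9.79 and 9.92 CPM in the heterozygotes and 8.95 CPM in the wild type (chromosome 4, 132492032 to 132510501, minus strand). Sesn1 had 53.5 and 47.9 CPM in the libraries labelled knockout, against 58.5 and 64.6 CPM in the heterozygotes and 58.0 CPM in the wild type (chromosome 10, 41810574 to 41908424, plus strand). In neither gene did the groups overlap. Sesn2 rose 1.36-fold (log2 0.45, SE 0.101, adjusted p = 0.0211), and Sesn1 fell to 0.845 times the control level (log2 -0.24, SE 0.0669, adjusted p = 0.0492). The Sesn2 call was lost without labelled knockout replicate 1 (adjusted p = 0.0545), labelled knockout replicate 2 (0.0749) or the wild type (0.0772). The Sesn1 call was lost without labelled knockout replicate 2 (log2 -0.17, adjusted p = 0.274), heterozygote replicate 1 (0.0723), heterozygote replicate 2 (0.163) or the wild type (0.0813).

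Zmat3 encodes a zinc-finger RNA-binding protein that acts on splicing and transcript stability (chromosome 3, 32334792 to 32366014, minus strand). It had 60.1 and 67.5 CPM in the libraries labelled knockout, against 51.7 and 53.9 CPM in the heterozygotes and 53.3 CPM in the wild type, without overlap. The rise was 1.21-fold (log2 0.28, SE 0.0627, adjusted p = 0.0213). It lost its call without labelled knockout replicate 2 (log2 0.18, adjusted p = 0.169), heterozygote replicate 1 (0.0659), heterozygote replicate 2 (0.0599) or the wild type (0.0669).

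**Figure D2:**
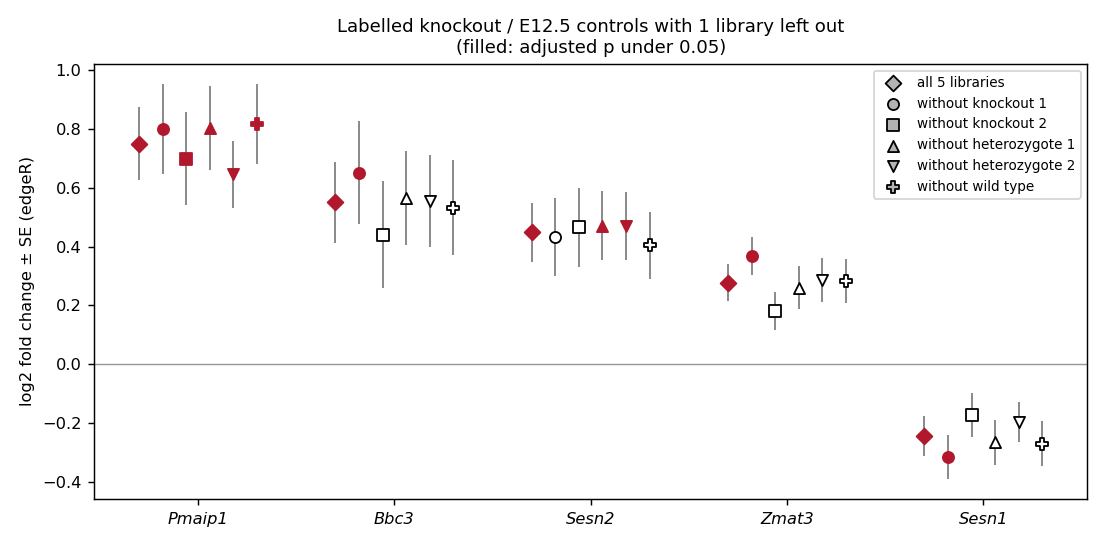
Log2 fold change ± SE (edgeR, libraries labelled knockout over E12.5 controls) of the 5 called members with all 5 libraries and with each library left out; filled symbols have an adjusted p under 0.05. Pmaip1 stays filled throughout, between 0.64 and 0.82, while the other 4 genes lose the call in at least 3 of the 5 settings.

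The cell cycle and feedback members did not pass the test. Cdkn1a encodes p21, the cyclin-dependent kinase inhibitor through which p53 arrests the cycle (chromosome 17, 29090979 to 29100722, plus strand). It had 23.4 and 25.3 CPM in the libraries labelled knockout, against 23.5 and 24.0 CPM in the heterozygotes and 22.9 CPM in the wild type, and the groups overlapped. Its log2 fold change was 0.06 (SE 0.0732, adjusted p = 0.699). Mdm2, the ubiquitin ligase that degrades p53, had 93.6 and 100.05 CPM in the libraries labelled knockout, against 100.7 and 98.1 CPM in the heterozygotes and 97.0 CPM in the wild type (chromosome 10, 117688888 to 117710758, minus strand; log2 -0.02, SE 0.0502, adjusted p = 0.880). Ccng1, which encodes cyclin G1 and recruits a phosphatase to Mdm2, had 47.9 and 43.1 CPM in the libraries labelled knockout, against 44.6 and 48.6 CPM in the heterozygotes and 51.0 CPM in the wild type (chromosome 11, 40748552 to 40755311, minus strand; log2 -0.07, SE 0.0697, adjusted p = 0.616). The groups overlapped in both genes.

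In the wider pathway, the calls are read beside the 7.41% of all genes that edgeR called. Trp53 itself had 136 and 138 CPM in the libraries labelled knockout, against 131 and 128 CPM in the heterozygotes and 126 CPM in the wild type (log2 0.10, SE 0.041, adjusted p = 0.155). Mdm4 had a log2 fold change of -0.10 (SE 0.0414, adjusted p = 0.158), and Trp73, which encodes the p53 relative p73, one of -0.01 (SE 0.115, adjusted p = 0.969). None of these 3 genes was called. Of 27 tested genes among 30 other p53 targets, 0 rose and 1 fell (7 at an unadjusted p under 0.05), with a median of -0.08. The gene that fell was Ak1, an adenylate kinase (log2 -0.45, SE 0.0968, adjusted p = 0.0167). Of 13 tested p53 pathway regulators, 1 rose, the p53 kinase Hipk2 (log2 0.22, SE 0.0585, adjusted p = 0.0432), and 0 fell (4 at an unadjusted p under 0.05), with a list median of -0.01. Voom called 0 of the regulators. Of 20 tested genes of the Bcl2 family and the caspases, 0 rose and 1 fell (4 at an unadjusted p under 0.05), with a median of 0.01, while DESeq2 and voom called 0. Of 20 cell cycle genes that p53 represses through p21 and the DREAM complex, 1 rose, the mitotic kinase Plk1 (log2 0.27, SE 0.0606, adjusted p = 0.0211), and 0 fell (5 at an unadjusted p under 0.05), with a median of 0.05.

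Region and cell type markers and sex moved with this comparison. The 7 tested ventral telencephalon markers summed to 77.5 to 107 CPM in the libraries labelled knockout, against 40.2 to 66.1 CPM in the E12.5 controls. Gsx2 (log2 1.16, adjusted p = 0.0308) and Dlx2 (log2 0.85, adjusted p = 0.0358) were among the 3 that rose. The 5 choroid plexus markers summed to 273 to 279 CPM in the libraries labelled knockout, against 570 to 653 CPM in the E12.5 controls, and 4 of them fell, among them Ttr (log2 -1.60, adjusted p = 0.000543) and Kcne2 (log2 -1.98, adjusted p = 2.77e-06). The 4 intermediate progenitor markers summed to 529 to 555 CPM, against 631 to 677 CPM in the E12.5 controls, and 2 of them fell, Eomes (log2 -0.38, adjusted p = 0.000146) and Insm1 (log2 -0.28, adjusted p = 0.0315). The 7 cortical neuron markers summed to 1444 to 1581 CPM, against 1689 to 1926 CPM in the E12.5 controls, and edgeR called 0 of them (5 at an unadjusted p under 0.05), DESeq2 2 and voom 1. The 7 apical progenitor markers summed to 3004 to 3178 CPM, against 2968 to 3036 CPM in the E12.5 controls, and edgeR called 0 higher and 2 lower, while DESeq2 and voom each also called 1 higher. EdgeR called 0 markers of microglia, endothelial cells, erythroid cells or meninges (1, 1, 0 and 2 at an unadjusted p under 0.05), DESeq2 called 1 endothelial and 2 meningeal markers, and voom 2 meningeal markers. No marker was at 0 in all libraries of either group, and the part of these markers in the members' differences was not tested. Labelled knockout replicate 2 was the only female E12.5 library. With a term for embryo sex the contrast thus rests on labelled knockout replicate 1 alone and cannot tell sex from that embryo. Pmaip1 then had a log2 fold change of 0.70, and the calls of Bbc3, Sesn1, Sesn2 and Zmat3 were not kept.

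**Figure D3:**
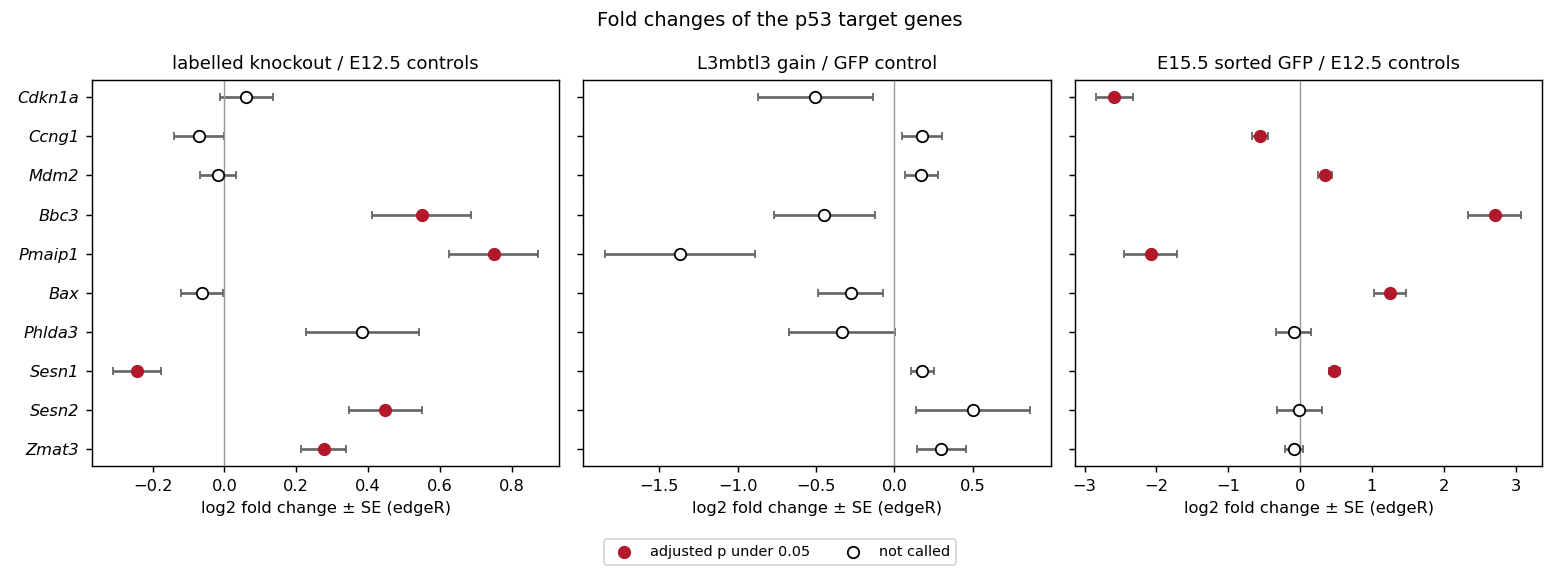
Log2 fold change ± SE (edgeR) of each member in the 3 comparisons, on a separate scale per panel; filled points have an adjusted p under 0.05. There are 5 filled points for the libraries labelled knockout, 0 for L3mbtl3 gain and 7 for the sorted E15.5 GFP controls against the E12.5 controls.

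The gain libraries were compared with the GFP controls to ask whether raised L3mbtl3 alters the genes in electroporated cells 3 days later. None of the 10 members was called by edgeR or by DESeq2, while limma voom with quality weights called 2. The shares of all genes called were 0.499% with DESeq2 and 13.6% with voom, so 2 of 10 is near the voom background. At an unadjusted p under 0.05, edgeR counted 2 members, Pmaip1 and Sesn1, while DESeq2 counted 1 and voom 8. The voom share of all genes at that unadjusted threshold is not given here. Of the 14698 genes tested, edgeR called 0.0136%, with 0.0068% higher and 0.0068% lower. The median log2 fold change was -0.05 for the members and -0.03 for all genes tested. The groups did not overlap for 2 of the 10 members, with 1 higher and 1 lower, against 16.3% of all genes tested (7.82% higher and 8.52% lower).

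Pmaip1 had 0.834, 0.526 and 0.528 CPM in the gain libraries, against 0.863, 1.81 and 2.21 CPM in the GFP controls. These values rest on 17, 11 and 10 counts in the gain libraries and 18, 33 and 46 in the GFP controls. The groups touched closely without overlap, since gain replicate 1 and GFP control replicate 1 were within 1 count. The log2 fold change was -1.37 (SE 0.481, edgeR adjusted p = 0.551), and -1.44 with voom (adjusted p = 0.0296).

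Sesn1 had 78.8, 80.3 and 76.1 CPM in the gain libraries, against 72.1, 69.4 and 66.7 CPM in the GFP controls. All 3 gain libraries lay above all 3 controls. The log2 fold change was 0.18 (SE 0.0759, edgeR adjusted p = 0.578), and 0.20 with voom (adjusted p = 0.0492).

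The apoptosis genes Bbc3 and Bax varied more among the GFP controls than between the groups. Bbc3 had 20.8, 18.2 and 19.3 CPM in the gain libraries, against 14.3, 28.2 and 36.5 CPM in the GFP controls. Bax had 96.5, 92.9 and 102 CPM in the gain libraries, against 83.6, 121 and 147 CPM in the GFP controls. In both genes the gain libraries lay between the lowest and the middle GFP control. The log2 fold changes were -0.45 for Bbc3 (SE 0.324, edgeR adjusted p = 0.665) and -0.28 for Bax (SE 0.208, edgeR adjusted p = 0.675). Without GFP control replicate 3 they were -0.10 and -0.04, and without GFP control replicate 1 they were -0.75 and -0.48.

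Cdkn1a had 2.65, 2.68 and 1.48 CPM in the gain libraries, against 2.44, 4.60 and 2.69 CPM in the GFP controls (log2 -0.51, SE 0.366, edgeR adjusted p = 0.665). Mdm2 had 116, 115 and 120 CPM in the gain libraries, against 121, 102 and 89.6 CPM in the GFP controls (log2 0.17, SE 0.104, edgeR adjusted p = 0.631). Ccng1 had 31.9, 32.4 and 27.1 CPM in the gain libraries, against 27.1, 30.7 and 23.5 CPM in the GFP controls (log2 0.17, SE 0.129, edgeR adjusted p = 0.672). The groups overlapped in each of these 3 genes.

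Sesn2 had 11.5, 14.3 and 7.55 CPM in the gain libraries, against 10.1, 9.58 and 4.14 CPM in the GFP controls (log2 0.50, SE 0.362, edgeR adjusted p = 0.665). Zmat3 had 43.7, 54.8 and 54.0 CPM in the gain libraries, against 50.9, 38.9 and 34.9 CPM in the GFP controls (log2 0.30, SE 0.157, edgeR adjusted p = 0.610). Phlda3 had 2.21, 3.11 and 1.58 CPM in the gain libraries, against 2.30, 3.56 and 2.89 CPM in the GFP controls (log2 -0.34, SE 0.338, edgeR adjusted p = 0.743). These groups overlapped too. An adjusted p that misses the threshold does not show that the groups are alike.

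In the wider pathway, 0 of 26 other p53 targets, 0 of 13 regulators, 0 of 19 Bcl2 family and caspase genes and 0 of 20 DREAM-repressed cell cycle genes were called by edgeR after gain, with 1, 2, 0 and 0 of them at an unadjusted p under 0.05. DESeq2 also called 0 in each list. Voom called 1 other target higher, 6 regulators higher, 1 gene of the Bcl2 family and the caspases lower and 2 DREAM-repressed genes lower, beside 13.6% of all genes. Trp53 had 105, 111 and 111 CPM in the gain libraries, against 104, 134 and 129 CPM in the GFP controls (log2 -0.16, SE 0.12, edgeR adjusted p = 0.671). Mdm4 had a log2 fold change of 0.36 (SE 0.189, edgeR adjusted p = 0.611) and Trp73 of -0.43 (SE 0.478, edgeR adjusted p = 0.766). The DREAM-repressed genes summed to 805, 802 and 687 CPM in the gain libraries, against 1620, 952 and 426 CPM in the GFP controls, and the groups overlapped. Their median log2 fold change was -0.37 with 20 of 20 below 0, but 0.03 with 8 of 20 below 0 without GFP control replicate 1.

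The GFP controls also differed among themselves in the markers of cell types. Their 7 cortical neuron markers summed to 6142, 7440 and 8709 CPM in replicates 1, 2 and 3, and their apical progenitor markers to 1683, 1199 and 541 CPM. In the same order, their ventral telencephalon markers summed to 760, 235 and 11.01 CPM, and their immediate early and dissociation response genes to 330, 266 and 190 CPM. Bbc3, Bax and Pmaip1 were lowest in replicate 1 and highest in replicate 3, while Mdm2, Zmat3, Sesn1 and Sesn2 were highest in replicate 1 and lowest in replicate 3. The share of all genes with such an order was not counted, so it is not a result about the members. In the gain libraries the neuron markers summed to 7213 to 7298 CPM and the apical progenitor markers to 948 to 1058 CPM. Microglia markers summed to 5.10 to 7.13 CPM in the gain libraries, against 13.4 to 31.4 CPM in the GFP controls, and endothelial markers to 5.38 to 8.88 CPM, against 13.5 to 20.5 CPM in the GFP controls. Ventral telencephalon markers summed to 10.3 to 196 CPM in the gain libraries, against 11.01 to 760 CPM in the GFP controls. EdgeR called none of these markers, with 5 of 6 tested microglia markers and 4 of 6 endothelial markers at an unadjusted p under 0.05. DESeq2 called 3 microglia markers and 1 endothelial marker lower, and voom called 5 and 4. Of the 7 cortical neuron markers, voom called 1 higher, while edgeR and DESeq2 called 0, each with 1 at an unadjusted p under 0.05. No marker was at 0 in all libraries of a group. The part of these markers in the members' values was not tested.

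**Figure D4:**
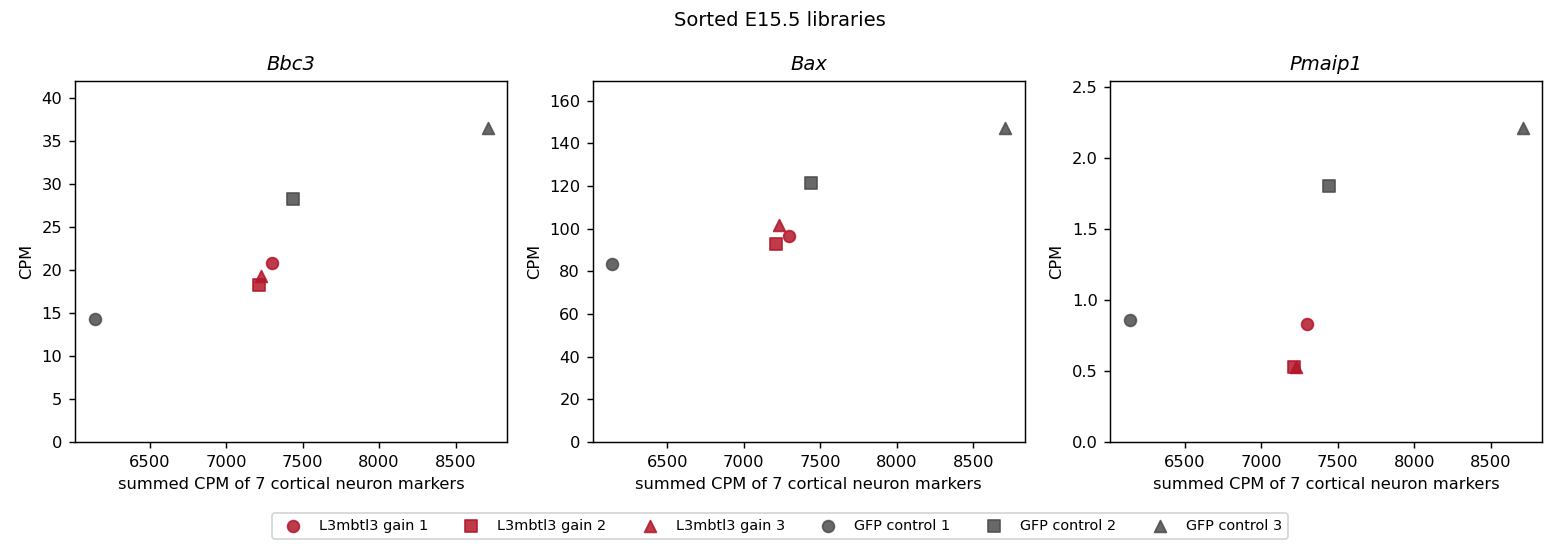
CPM of Bbc3, Bax and Pmaip1 against the summed CPM of 7 cortical neuron markers in the 3 gain libraries and the 3 GFP controls, 1 point per library. The GFP controls run from 6142 to 8709 CPM of the markers with all 3 genes lowest at the left and highest at the right, while the gain libraries lie close together at 7213 to 7298 CPM. Mdm2, Zmat3, Sesn1 and Sesn2, not plotted here, ran the other way over the GFP controls, as did the summed apical progenitor and ventral telencephalon markers. A link to any of these markers was not tested.

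The sorted E15.5 GFP controls were set against the E12.5 controls to describe the genes over the stages the study covers. These groups differ in age, electroporation, dissociation and sort, and cell makeup, which cannot be told apart. They serve as controls in the comparisons above, so their values are shared with them. Of the 15968 genes tested, edgeR called 62.3%, with 31.1% higher and 31.3% lower. Of the 10 members, 7 were called, with Bbc3, Bax, Sesn1 and Mdm2 higher and Cdkn1a, Pmaip1 and Ccng1 lower in the GFP controls. The CPM of 7 of the 10 members did not overlap between the groups, with 3 higher and 4 lower, against 74.1% of all genes tested (25.6% higher and 48.5% lower). The median log2 fold change was -0.05 for the members and -0.02 for all genes.

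The BH3-only genes Bbc3 and Pmaip1 moved in opposite directions. Bbc3 had 14.3, 28.2 and 36.5 CPM in the GFP controls, against 4.99 and 4.96 CPM in the heterozygotes and 4.78 CPM in the wild type at E12.5, a 6.54-fold rise (log2 2.71, SE 0.369, edgeR adjusted p = 0.000939). Pmaip1 had 0.863, 1.81 and 2.21 CPM in the GFP controls, against 8.93 and 6.96 CPM in the heterozygotes and 9.21 CPM in the wild type, and fell to 0.237 times the E12.5 level (log2 -2.08, SE 0.368, edgeR adjusted p = 0.00285). Bax had 83.6, 121 and 147 CPM in the GFP controls, against 58.7, 58.3 and 62.7 CPM in the E12.5 controls (2.38-fold, log2 1.25, SE 0.222, edgeR adjusted p = 0.00287). None of these 3 genes overlapped between the groups.

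Cdkn1a had 2.44, 4.60 and 2.69 CPM in the GFP controls, against 23.5 and 24.0 CPM in the heterozygotes and 22.9 CPM in the wild type. The groups lay far apart, and Cdkn1a fell to 0.167 times the E12.5 level (log2 -2.59, SE 0.254, edgeR adjusted p = 0.000242). Ccng1 had 27.1, 30.7 and 23.5 CPM in the GFP controls, against 44.6, 48.6 and 51.0 CPM in the E12.5 controls, and fell to 0.680 times that level (log2 -0.56, SE 0.115, edgeR adjusted p = 0.00536). Neither gene overlapped between the groups.

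The calls for Sesn1 and Mdm2 were lost with scaling by library totals but kept with median-of-ratios factors, DESeq2 and voom. Sesn1 had 72.1, 69.4 and 66.7 CPM in the GFP controls, against 58.5, 64.6 and 58.0 CPM in the E12.5 controls (log2 0.47, SE 0.0772, edgeR adjusted p = 0.00194). Mdm2 had 121, 102 and 89.6 CPM in the GFP controls, against 100.7, 98.1 and 97.0 CPM in the E12.5 controls (log2 0.35, SE 0.0956, edgeR adjusted p = 0.0174), and these ranges overlap. Scaling by library totals instead of TMM factors moved the median of all genes to -0.30, and then neither Sesn1 (log2 0.20, adjusted p = 0.0642) nor Mdm2 (log2 0.08, adjusted p = 0.565) was called. Mdm2 also lost its call without heterozygote replicate 1 (adjusted p = 0.0576), heterozygote replicate 2 (0.0686) or the wild type (0.0725). The CPM printed here are scaled by library totals.

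Phlda3 (log2 -0.09, SE 0.242, edgeR adjusted p = 0.772), Sesn2 (log2 -0.01, SE 0.31, edgeR adjusted p = 0.979) and Zmat3 (log2 -0.08, SE 0.125, edgeR adjusted p = 0.581) were not called between the stages. Zmat3 had 50.9, 38.9 and 34.9 CPM in the GFP controls, against 51.7, 53.9 and 53.3 CPM in the E12.5 controls, without overlap. Without GFP control replicate 1, which lay nearest to the E12.5 controls, Zmat3 was called lower (log2 -0.23, adjusted p = 0.0288).

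**Figure D5:**
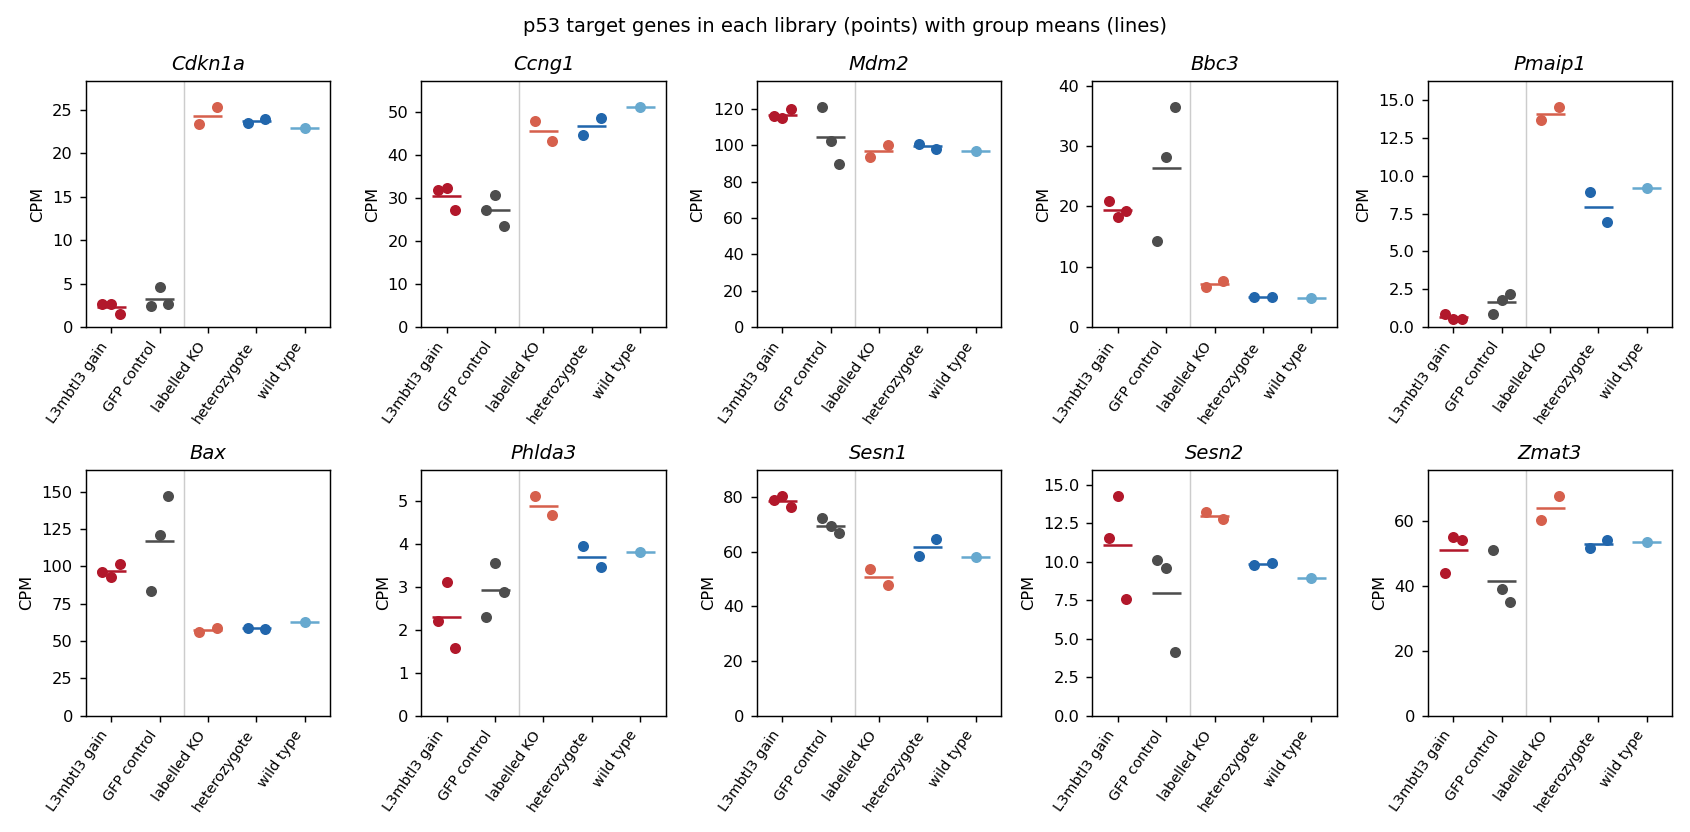
CPM of each of the 10 genes in every library (points, replicates in order within a group) with the group mean (lines), from the L3mbtl3 gain and GFP control groups at E15.5 on the left to the labelled knockout, heterozygote and wild-type groups at E12.5 on the right of the grey line. Pmaip1 stands at 13.7 and 14.5 CPM in the libraries labelled knockout, above every other library, and Cdkn1a stays at or under 4.60 CPM in the sorted libraries.

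Other genes of the pathway moved in both directions between the stages. Trp53 had 104, 134 and 129 CPM in the GFP controls, against 131, 128 and 126 CPM in the E12.5 controls (log2 0.21, SE 0.125, edgeR adjusted p = 0.188). Mdm4 fell (log2 -0.60, SE 0.186, edgeR adjusted p = 0.0280). Trp73 had 1.29, 0.876 and 0.529 CPM in the GFP controls, against 39.6, 47.6 and 51.1 CPM in the E12.5 controls (log2 -5.40, SE 0.276, edgeR adjusted p = 3.27e-05), and was the member of the regulator list with the largest change. Of the 13 regulators, 1 rose, the acetyltransferase Kat5 (log2 0.82, edgeR adjusted p = 0.000364), and 8 fell, including the checkpoint kinases Chek1 (log2 -2.23, edgeR adjusted p = 0.00343), Chek2 (log2 -1.63, edgeR adjusted p = 0.00891) and Atm (log2 -1.32, edgeR adjusted p = 0.000643). The list median was -0.60.

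Of 27 other p53 targets, 5 rose and 9 fell, with a median of -0.39. Those that rose included Ak1 (log2 2.58, edgeR adjusted p = 0.000611), the kinase Plk2 (log2 2.47, edgeR adjusted p = 0.00025), Tigar (log2 0.77, edgeR adjusted p = 0.00153) and the phosphatase Ppm1d (log2 0.45, edgeR adjusted p = 0.00432). Those that fell included the death receptor Tnfrsf10b (log2 -3.11, edgeR adjusted p = 0.000765), the DNA polymerase Polk (log2 -1.89, edgeR adjusted p = 0.00162), Perp (log2 -1.81, edgeR adjusted p = 0.0450) and the long noncoding RNA Trp53cor1. Trp53cor1 had 4, 1 and 0 counts in the GFP controls, against 21, 19 and 14 counts in the E12.5 controls (edgeR adjusted p = 0.0103).

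The Bcl2 family and the caspases also moved in both directions. Of 19 tested, 6 rose and 7 fell, with a median of 0.16. The BH3-only genes Bid (log2 1.18, edgeR adjusted p = 0.00959) and Bad (log2 1.11, edgeR adjusted p = 0.0015) and the survival gene Bcl2l1 (log2 1.13, edgeR adjusted p = 0.000925) were among those that rose. Casp8, the initiator caspase of death receptors (log2 -3.56, edgeR adjusted p = 0.000746), and the BH3-only genes Hrk (log2 -1.54, edgeR adjusted p = 0.00459) and Bcl2l11 (log2 -1.20, edgeR adjusted p = 0.005) were among those that fell. Of 20 DREAM-repressed cell cycle genes, 0 rose and 18 fell, with a median of -1.59. Bub1 had a log2 fold change of -2.26 (edgeR adjusted p = 0.00928), Top2a of -2.13 (edgeR adjusted p = 0.0161) and Kif23 of -1.83 (edgeR adjusted p = 0.0196).

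Cell type markers differed widely between these groups. Cortical neuron markers summed to 6142 to 8709 CPM in the GFP controls, against 1689 to 1926 CPM in the E12.5 controls, and apical progenitor markers to 541 to 1683 CPM, against 2968 to 3036 CPM in the E12.5 controls. Endothelial markers summed to 13.5 to 20.5 CPM in the GFP controls, against 429 to 511 CPM in the E12.5 controls. Erythroid markers summed to 23.4 to 98.9 CPM in the GFP controls, against 2493 to 3229 CPM in the E12.5 controls, and meningeal markers to 7.12 to 55.8 CPM, against 1713 to 1901 CPM in the E12.5 controls. Of the neuron markers 6 of 7 rose, of the apical progenitor markers 4 of 7 fell, and all endothelial (7), erythroid (6) and meningeal (5) markers fell. No marker was at 0 in all libraries of either group. Of 11 tested immediate early and dissociation response genes, 6 rose and 1 fell, with a median of 0.96. The 12 listed genes summed to 190 to 330 CPM in the GFP controls, against 269 to 278 CPM in the E12.5 controls, and these sums overlapped. The part of these markers in the members' differences was not tested.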

How the data were processed

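Polyadenylated RNA was sequenced as single-end reads of 75 bases from stranded libraries, per the labels' protocols. The values the authors deposited are raw counts of reads over each gene's exons, made by featureCounts 2.0.1 with reverse-stranded counting, per the file headers. CASAVA 1.9, FastQC 0.11.8, HISAT2 2.2.1, SAMtools 1.9, deepTools 3.3.0 and the build GRCm38 are named in the submitters' processing notes. The annotation release and the treatment of reads that map to several places were not given in the sources used here. Samples of E14.5 cells were not analysed here.

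Of 46078 gene identifiers, 45143 had a symbol. CPM and RPKM were computed from the counts, library totals and exon lengths in the files. Each comparison was fitted over its own libraries with edgeR 4.0.16 (TMM factors, filterByExpr, robust quasi-likelihood test, two-sided) in R 4.3.3, with Benjamini-Hochberg adjustment over all genes tested and calls at an adjusted p under 0.05. The SE is the absolute log2 fold change divided by the square root of F. The procedure was tested on simulated counts. DESeq2 1.42.0, limma 3.58.1 voom, other scalings, no filter, a sex term, a replicate block, a fit of all 11 libraries and leaving out each library were alternatives. The labels do not state separate embryos, though sex shows that the libraries labelled knockout came from different embryos, as did gain replicate 2 and the other gain libraries. Among replicates of like sex the spread behind the p-values may be technical. No pair of replicates agreed within sampling noise, with a chi-square per degree of freedom of at least 3.79 between like-labelled libraries.

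The members and the gene lists were chosen with earlier results of these data known. The text names all 10 members, L3mbtl3, Trp53, Mdm4, Trp73, up to 4 called genes per direction from each list with the largest fold change, and up to 2 genes per marker list. The values of 3 single genes that this rule named are not reported here, though counts include them.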

Additional observations from a re-analysis of the deposited data

How the results depend on the processing

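With a sex term, the gain contrast rests on gain replicate 2 alone and the labelled knockout contrast on labelled knockout replicate 1 alone. The other libraries of those groups were female, while all their controls were male. Such fits cannot tell sex from the single embryo. No called direction reversed under an alternative. Some log2 fold changes that were not called changed sign. After gain this was Phlda3, which was -0.34 and became 0.10 with a sex term, where only gain replicate 2 enters the contrast. In the libraries labelled knockout it was Cdkn1a with a sex term (-0.0043) and with 1 library left out (-0.0058 to 0.13), and Mdm2 with 1 library left out (-0.0765 to 0.0367). Between the stages it was Phlda3 with voom (0.13) and with 1 library left out (-0.24 to 0.0726), Sesn2 with voom (0.21), with a replicate block (0.28) and with 1 library left out (-0.203 to 0.29), Zmat3 with a replicate block (0.0127) and with 1 library left out (-0.23 to 0.0041), and L3mbtl3 with 1 library left out (-0.13 to 0.0030). After gain, voom called 2 members, the other alternatives and each left-out library 0. Genes called after gain numbered 2, but 81 with DESeq2, 2001 with voom, 97 with all 11 libraries in a single fit, 1 with a sex term, 3 with no filter and 3 with a replicate block, and 0 to 415 with 1 library left out (the most without GFP control replicate 1). With GFP control replicate 2 left out, edgeR called 0 genes (693 at an unadjusted p under 0.05), and L3mbtl3 missed the threshold (log2 4.42, adjusted p = 0.0539). In the libraries labelled knockout, 5 members were called, but 2 with DESeq2 (Pmaip1 and Zmat3), 4 with voom, 3 with a replicate block, 1 with a sex term, 0 with all 11 libraries in a single fit (2 at an unadjusted p under 0.05) and 1 to 4 with 1 library left out. Genes called there numbered 1213, but 2266 with no filter, 15 with all 11 libraries, 654 with a sex term and 603 to 1785 with 1 library left out. Between the stages 7 members were called, but 5 with library totals, 8 with voom and 6 to 8 with 1 library left out, while genes called numbered 9955 and 7793 to 11333. Library totals changed the split between the stages to 3590 higher and 6525 lower, against 4963 and 4992 with TMM. Same-numbered gain libraries and GFP controls had correlations of 0.179, 0.00968 and 0.256 between their deviations. Gain replicates 1 and 3 correlated best with the GFP control of the same number. The other correlations were 0.0411 and -0.176 for gain replicate 1, and -0.271 and -0.0458 for gain replicate 3. Gain replicate 2 correlated best with GFP control replicate 1 (0.115). These values do not settle whether the numbers mark pairs. The main fit did not take them as pairs, and the replicate block above was the alternative. Between the stages no E12.5 control shares a number with GFP control replicate 3, so that library does not enter the block contrast. The cause of the differences between settings was not tested. With 2 or 3 libraries per group, Pmaip1, Cdkn1a and Phlda3 at E15.5 rest on few counts, and small differences were not detectable.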
